A study of Mus musculus with 23 samples.

Results

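The 43 genes described here encode proteins of the cell division cycle and of DNA replication, taken as a fixed list of names and found by gene identifier in the expression tables of sorted mouse neutrophils. All 43 were found among 21878 genes. A dividing cell copies its DNA in S phase, when the MCM helicase opens the double helix, the PCNA clamp holds the polymerases on the template and ribonucleotide reductase supplies the building blocks. Cyclin-dependent kinase 1 with its cyclins then drives mitosis, in which Aurora and Polo-like kinases, the kinetochore and motor proteins move the chromosomes apart, and the anaphase-promoting complex ends the process by marking cyclins for destruction. Granulocyte precursors in bone marrow (BM) divide up to the myelocyte stage, and neutrophils in blood are regarded as having left the cell cycle.

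Neutrophils were sorted as CD45+CD11b+Ly6G+ cells from unchallenged adult mice, and poly(A) RNA was sequenced. Per the methods, PB and lung suspensions were enriched by negative selection before sorting, a step not stated for BM. Lung tissue was digested with collagenase and DNase. The part of these steps in differences between tissues was not tested. In the tissue comparison they came from BM, peripheral blood (PB) and perfused lung of WT mice (3 libraries each). The Piezo1 experiment compared WT with *Piezo1*-cKO neutrophils, each from lung and from PB (2 libraries per group). In *Piezo1*-cKO mice Cre under the *Vav1* promoter, active in all hematopoietic cells, deletes the loxP-flanked gene of the stretch-activated ion channel PIEZO1. The alleles carried by the WT mice of that experiment were not given in the sources used here. The libraries of a tissue came from separate mice per a legend of the study. For the Piezo1 experiment no source used here says so, and there p values measure the spread between libraries, which may be technical.

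The values are FPKM, fragments scaled for transcript length and for the number of mapped reads. The tissue libraries held 16502148 to 19330774 reads on genes, and those of the Piezo1 experiment 9621120 to 15034817. Between libraries of a group the variance was 1.58 to 7.57 times that of counting error for genes of 10 to 1000 reads, and the third PB library stood apart, at 5.65 and 7.57 against 2.57 between the other two PB libraries. *S100a8*, *S100a9*, *Ly6g* and the other markers of a list of 8 neutrophil genes were all expressed in every group, with a summed FPKM of at least 43692. *Piezo1* itself had 4 to 8 reads in each lung library and 3 to 10 in each PB library of the Piezo1 experiment. It was as low in WT as in *Piezo1*-cKO, so it does not check the genotype. The WT libraries of the tissue comparison held more *Piezo1* reads, 34 to 71 in PB and lung and 200 to 227 in BM. The difference between the experiments was not tested.

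The promoters of the members share short elements that the list did not select on. The CHR element, read by the DREAM and MuvB complexes, stands in the promoters of G2 and mitotic genes, the E2F element in those of S phase genes, and the CCAAT box, bound by NF-Y, often lies close to a CHR. The promoters of 7 members are shown to set genes that were far lower outside BM (*Ccnb2*, *Cdk1*, *Top2a*, *Mcm5*) beside genes that were not (*Kif23*, *Cks2*, *Pcna*). Each is the 250 bases before the start of transcription in RefSeq (GRCm38.p6), 5′ to 3′ on the strand of the gene, with every match to a CHR, E2F or CCAAT string in capitals. *Ccnb2* is at chr9:70421555-70421804 (minus strand), *Cdk1* at chr10:69352913-69353162 (minus), *Top2a* at chr11:99024190-99024439 (minus), *Mcm5* at chr8:75109259-75109508 (plus), *Kif23* at chr9:61946800-61947049 (minus), *Cks2* at chr13:51644982-51645231 (plus) and *Pcna* at chr2:132253181-132253430 (minus).
Ccnb2: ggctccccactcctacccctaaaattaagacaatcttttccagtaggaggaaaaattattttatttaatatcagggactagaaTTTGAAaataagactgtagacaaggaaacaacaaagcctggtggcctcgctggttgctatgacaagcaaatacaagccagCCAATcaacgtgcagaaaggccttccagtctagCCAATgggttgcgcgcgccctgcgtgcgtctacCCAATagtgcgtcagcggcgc
Cdk1: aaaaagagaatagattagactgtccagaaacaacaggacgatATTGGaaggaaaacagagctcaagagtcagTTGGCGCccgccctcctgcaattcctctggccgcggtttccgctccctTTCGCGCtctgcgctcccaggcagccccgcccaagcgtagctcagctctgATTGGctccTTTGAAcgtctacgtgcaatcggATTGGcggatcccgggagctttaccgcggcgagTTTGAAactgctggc
Top2a: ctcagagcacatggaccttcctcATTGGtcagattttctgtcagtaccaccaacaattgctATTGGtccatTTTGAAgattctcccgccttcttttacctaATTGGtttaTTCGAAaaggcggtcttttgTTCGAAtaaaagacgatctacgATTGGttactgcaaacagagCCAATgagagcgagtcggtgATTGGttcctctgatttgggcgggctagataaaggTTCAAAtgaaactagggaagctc
Mcm5: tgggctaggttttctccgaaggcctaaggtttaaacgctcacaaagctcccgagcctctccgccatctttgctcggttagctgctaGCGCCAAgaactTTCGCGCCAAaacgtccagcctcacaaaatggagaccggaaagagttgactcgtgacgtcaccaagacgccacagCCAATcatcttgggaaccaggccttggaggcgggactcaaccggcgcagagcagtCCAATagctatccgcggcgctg
Kif23: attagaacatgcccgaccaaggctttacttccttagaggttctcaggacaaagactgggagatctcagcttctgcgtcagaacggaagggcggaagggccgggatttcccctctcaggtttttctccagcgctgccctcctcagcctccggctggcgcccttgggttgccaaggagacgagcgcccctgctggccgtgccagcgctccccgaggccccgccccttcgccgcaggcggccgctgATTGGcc
Cks2: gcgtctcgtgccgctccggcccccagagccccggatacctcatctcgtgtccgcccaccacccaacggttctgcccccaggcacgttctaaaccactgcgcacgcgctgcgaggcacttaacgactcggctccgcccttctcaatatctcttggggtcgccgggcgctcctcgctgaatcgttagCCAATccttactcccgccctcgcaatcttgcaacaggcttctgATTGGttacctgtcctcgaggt
Pcna: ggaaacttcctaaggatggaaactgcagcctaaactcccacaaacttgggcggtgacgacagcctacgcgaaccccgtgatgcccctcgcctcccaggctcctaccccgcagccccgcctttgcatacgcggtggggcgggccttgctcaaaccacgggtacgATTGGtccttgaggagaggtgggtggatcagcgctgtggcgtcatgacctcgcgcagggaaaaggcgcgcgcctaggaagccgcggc

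The CHR was searched as TTTGAA and TTCGAA, E2F as TTCCCGC or TTCGCGC or else TTGCCGC or TTGGCGC, and the CCAAT box as CCAAT, on both strands, in 300 bases that also hold the first 50 bases of the transcript. RefSeq held a promoter for 37 of the 43 members, 40 promoters in all, and none was at hand for *Aurkb*, *Ccna2*, *Kif20a*, *Mcm4*, *Stmn1* and *Tpx2*. A CHR string stood in 26 of the 40 (65.0%) against 19.2% of all 32851 mouse promoters. A CCAAT string stood in 34 (85%) against 37.4%, and an E2F string in 13 (32.5%) against 9.57%. *Top2a* held 4 CHR and 6 CCAAT strings, *Cdk1* 2 CHR, 2 E2F and 3 CCAAT strings, and *Mcm5* 3 E2F strings. *Pcna* held 1 CCAAT string and no CHR or E2F string, and *Cks2* held CCAAT strings alone. In *Kif23* the CHR string began 3 bases into the transcript, outside the sequence shown. The members that were lower in PB than in BM held a CHR string in 19 of 28 promoters (67.9%), and the other members in 7 of 12 (58.3%), so the letters were frequent on both sides. The other members included *Tyms*, *Mcm2* and *Mcm6*, not called but also of lower mean in PB. The 7 promoters shown do not stand for all members. *Hmgb2* and *Ect2*, not called, held 2 CHR strings a promoter and *Cenpa*, not called, held 1. *Birc5*, *Ccnb1*, *Cenpe* and *Nusap1*, called lower, held none. These are matches of letters and not sites of binding.

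**Figure D1:**
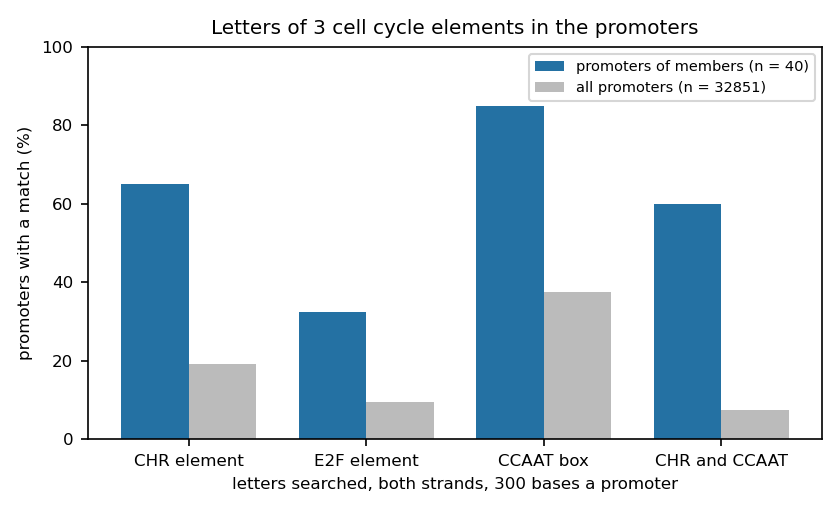
Share of promoters, in percent, that hold at least 1 string of each element within 300 bases, for the 40 promoters of members (blue) and all 32851 promoters (grey). Each element was more frequent among the members' promoters, with 65.0% against 19.2% for the CHR and 85% against 37.4% for the CCAAT box, and a CHR with a CCAAT box stood in 60.0% against 7.52%.

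To ask how far the division program of marrow precursors is still seen in circulating and lung neutrophils, PB and lung were each compared with BM. The members were expressed in BM and most of them were close to absent elsewhere. In BM, 41 of 43 had a mean of at least 1 FPKM, against 10 in PB and 7 in lung, and the median of the 43 group means was 5.31 FPKM in BM, 0.0810 in PB and 0.139 in lung. Every member had reads in BM, whereas 4 members (*Bub1*, *Tpx2*, *Nusap1* and *Tk1*) had none in any PB library. In PB, 32 members were lower than in BM and 2 were higher, *Cks2* and *Kif23*. Of all genes tested 14.1% were called lower and 7.85% higher (limma on log2(FPKM + 1), adjusted p below 0.05 and more than 1 log2 unit). In lung 34 members were lower and 1 higher, *Cks2*, against 36.0% and 9.86% of all genes. Bulk RNA cannot tell fewer cells that express a gene from less RNA per cell.

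A filter on low values (FPKM of at least 1 in 3 of the 6 libraries) shaped these counts. Of the 41 members tested in PB against BM, 31 passed through the BM libraries alone and so had to be lower in PB, and in lung 34 did. Without the filter all 43 were fitted, and 32 were lower and 2 higher in PB against 8.06% and 4.46% of all genes, while 34 were lower and 1 higher in lung against 20.7% and 5.70%. The median log2 difference of the 43 was then -2.08 in PB and -2.07 in lung, and that of all genes -0.01 and -0.15. Counts of recovered reads of all genes (edgeR) called 35 members lower and 2 higher in PB, against 15.9% and 9.66%, and 37 lower and 3 higher in lung, against 19.4% and 18.2%. In that fit the median log2 difference of the 43 was -5.42 in PB and -4.43 in lung, and that of all genes 0.008 and -0.06. Values on the log2(FPKM + 1) scale understate the falls of low genes. Both comparisons share the BM libraries. Leaving out the third PB library gave 32 lower and 2 higher in PB again.

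The scale of the values mattered in lung. The median gene tested lay at -0.12 log2 units in PB and -0.70 in lung relative to BM, and after FPKM were rescaled to a common median 30 members were lower and 3 higher in lung (*Cks2*, *Kif23* and *Pcna*), while the share of all genes called lower went from 36.0% to 14.5% and that called higher from 9.86% to 19.6%. *Mcm6*, *Mcm7* and *Rrm1* then lay at -0.88, -0.96 and -0.96 and were no longer called.

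**Figure D2:**
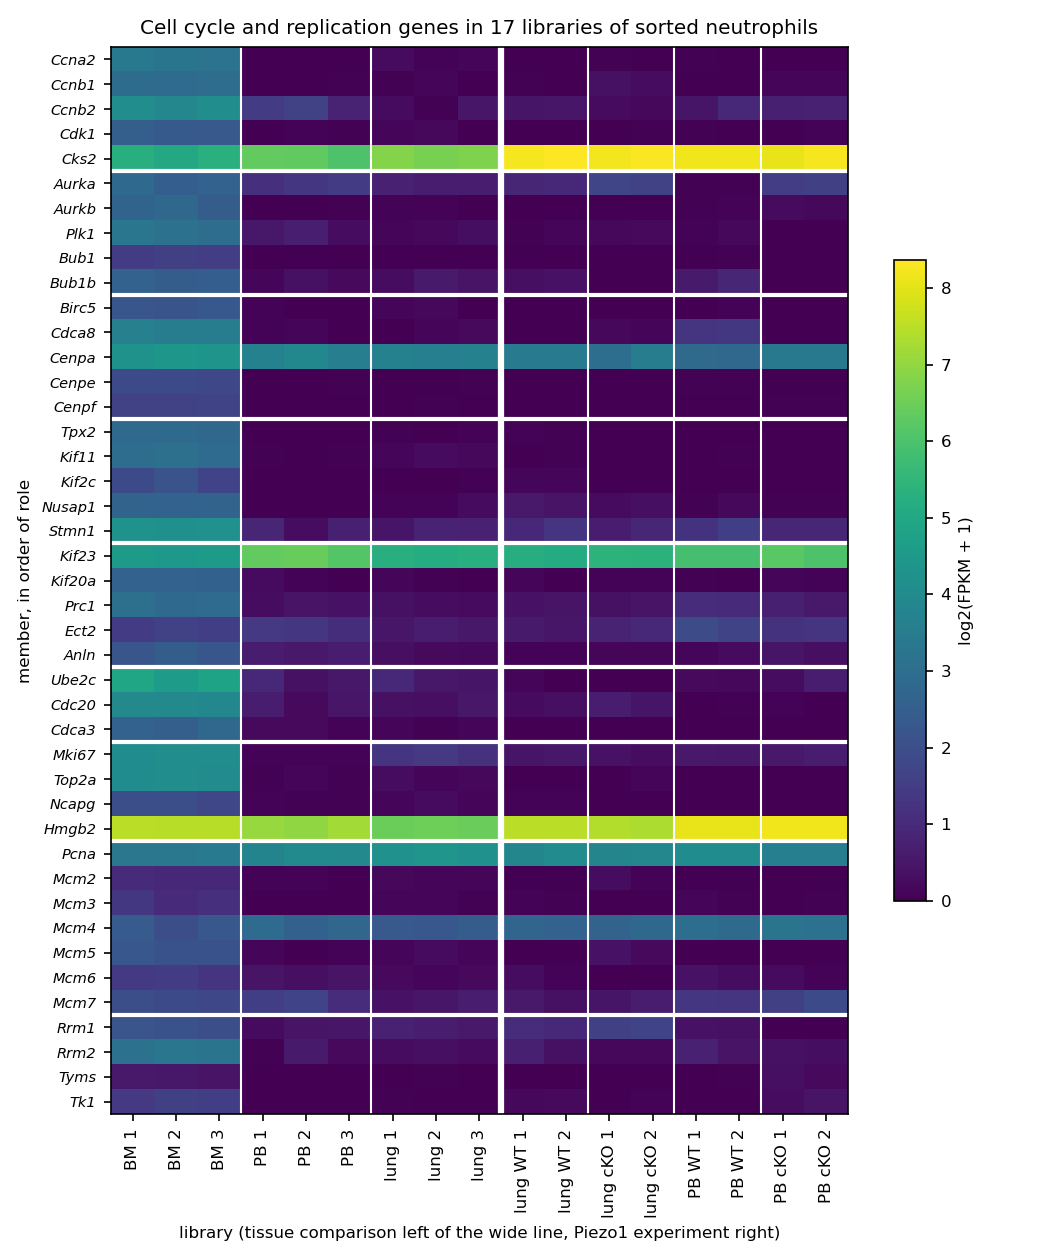
FPKM of the 43 members as log2(FPKM + 1), one column per library, with the tissue comparison left of the wide white line and the Piezo1 experiment right of it, and other white lines between groups and roles. The 3 BM columns are filled in nearly every row, whereas outside BM only *Cks2*, *Kif23*, *Hmgb2*, *Cenpa*, *Pcna* and *Mcm4* stay above 1 FPKM in every library.

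Among the cyclins and *Cdk1*, 4 of 5 fell in both tissues. *Ccnb2*, the mitotic cyclin B2, measured 16.2, 13.7 and 16.2 FPKM in the BM libraries, 1.76, 2.15 and 0.733 in PB and 0.189, 0.0378 and 0.433 in lung. Its mean was thus 9.93 times as high in BM as in PB and 69.9 times as high as in lung (log2 fold change of -2.72 ± 0.21 (SE) and -3.75 ± 0.12). *Cdk1*, the kinase that drives entry into mitosis, measured 4.78, 4.14 and 4.0 in BM, 0, 0.0569 and 0.0376 in PB and 0.0816, 0.122 and 0 in lung, which are 5 reads in all of PB and 10 in all of lung against 701 in BM. *Ccna2* and *Ccnb1*, the other cyclins of S phase and mitosis, had 1 read each over the 3 PB libraries against 1672 and 899 in BM, so that the pooled read rate was 1608 times (95% interval 288 to 63555) and 865 times (155 to 34190) as high in BM, an interval that covers counting error only.

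*Cks2* was the exception in this group. It encodes a small subunit that binds cyclin-dependent kinases, and it measured 37.8, 31.8 and 38.7 FPKM in BM, 80.4, 78.9 and 64.8 in PB and 111, 99.999 and 106 in lung. The 3 groups did not overlap. Here and for the members below, the share of all genes for which this holds was not determined. Differences between groups were common, since without the fold threshold 5846 of 8236 genes were lower and 1782 higher in lung than in BM. *Cks2* rose by 1.03 ± 0.10 log2 units in PB (adjusted p = 4.34e-05) and by 1.53 ± 0.07 in lung (adjusted p = 7.98e-09). In PB the rise lay at the edge of the threshold, and it was 0.94 to 0.99 when the first or second PB library or the second BM library was left out. In the Piezo1 experiment *Cks2* stood at 267 to 328 FPKM in all 8 libraries.

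All 5 mitotic kinase and checkpoint genes fell in both tissues. *Plk1*, Polo-like kinase 1, measured 8.69, 7.83 and 6.91 FPKM in BM, 0.459, 0.638 and 0.219 in PB and 0.0790, 0.132 and 0.246 in lung (log2 fold change of -2.62 ± 0.13 and -2.93 ± 0.09). *Aurka*, Aurora kinase A of the spindle poles, fell least of the 5 in PB, where it measured 1.24, 1.51 and 1.81 after 6.29, 4.61 and 5.19 in BM, and 0.710, 0.567 and 0.590 in lung. Its log2 fold change was -1.34 ± 0.12 in PB and -1.96 ± 0.10 in lung. *Bub1* and *Bub1b* hold back anaphase until chromosomes are attached, and *Aurkb* is the kinase of the chromosomal passenger complex. These 3 were at or below 0.507 FPKM in every PB and lung library of the tissue comparison. *Bub1* had 469 reads in BM and none in PB, at least 150 times higher in BM if the 3 PB libraries together are allowed 3 reads.

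Of the kinetochore and passenger genes, 4 of 5 fell in each tissue. *Cdca8*, borealin of the passenger complex, measured 11.5, 10.3 and 10.7 FPKM in BM, 0.0695, 0.10 and 0 in PB and 0, 0.108 and 0.149 in lung (log2 fold change of -3.49 ± 0.08 and -3.45 ± 0.08). *Birc5* (survivin), *Cenpe* and *Cenpf* fell by 1.66 to 2.20 log2 units in PB and by 1.64 to 2.13 in lung. *Cenpa*, the histone H3 variant that marks centromeres, was kept at 11.8, 14.1 and 10.99 in PB and 11.8, 11.2 and 11.8 in lung, beside 18.8, 20.6 and 19.0 in BM. Its log2 difference was -0.63 ± 0.09 in PB and -0.70 ± 0.05 in lung, below the threshold of 1, and in lung it was close to that of the median gene tested, -0.70. With FPKM rescaled to a common median the lung difference was 0.09.

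The 5 spindle genes fell in both tissues. *Stmn1*, stathmin, which takes microtubules apart, measured 18.6, 17.4 and 17.9 FPKM in BM, 0.853, 0.205 and 0.660 in PB and 0.385, 0.770 and 0.686 in lung (log2 fold change of -3.62 ± 0.15 and -3.56 ± 0.09). *Kif11*, the motor that pushes spindle poles apart, measured 6.88, 7.43 and 6.51 in BM, 0.0234, 0.0225 and 0.0335 in PB and 0.0726, 0.181 and 0.126 in lung. *Tpx2* and *Nusap1*, proteins of spindle assembly, had no read in PB, which puts them at least 492 and at least 295 times higher in BM with 3 reads allowed over the 3 PB libraries. *Kif2c*, a kinesin that removes tubulin at centromeres, had 1 read in PB and 2 in lung against 524 in BM.

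Among the genes of the central spindle and cytokinesis, *Kif20a*, *Prc1* and *Anln* fell in both tissues, by 1.69 to 2.58 log2 units in PB and by 2.07 to 2.65 in lung. *Prc1*, which bundles the microtubules of the central spindle, measured 7.54, 6.29 and 6.53 FPKM in BM, 0.218, 0.354 and 0.335 in PB and 0.294, 0.225 and 0.198 in lung. *Kif23*, the kinesin of the centralspindlin complex that works with PRC1 at the same structure, went the other way. It measured 22.4, 21.2 and 22.3 in BM, 80.6, 83.8 and 68.0 in PB and 37.0, 35.5 and 38.1 in lung, with no overlap between the groups. It rose by 1.77 ± 0.08 log2 units in PB (adjusted p = 4.58e-07), on 14744 reads against 4350 in BM. In lung its difference was 0.72 ± 0.04, under the threshold, and with FPKM rescaled it passed, at 1.52. *Racgap1*, the partner of KIF23 in centralspindlin and no member, fell from 7.97 ± 0.05 FPKM (SD, n = 3) in BM to 0.381 ± 0.065 in PB and 0.193 ± 0.054 in lung.

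*Ect2*, the exchange factor that activates RhoA for the cleavage furrow, was near 1 to 2 FPKM in both BM and PB. It measured 1.81, 2.06 and 1.96 in BM, 1.59, 1.52 and 1.12 in PB and 0.414, 0.579 and 0.444 in lung. Its log2 difference was -0.29 ± 0.10 in PB and -0.99 ± 0.07 in lung, where it missed the threshold of 1 and where counts of recovered reads called it lower (edgeR, -1.27).

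All 3 genes of mitotic exit fell in both tissues. *Ube2c*, the ubiquitin-conjugating enzyme of the anaphase-promoting complex, measured 29.6, 23.4 and 27.7 FPKM in BM, 0.971, 0.292 and 0.462 in PB and 0.940, 0.438 and 0.391 in lung. It had the largest fall of all 43 on the log2(FPKM + 1) scale in both tissues, a scale that gives more weight to genes of high level (log2 fold change of -4.16 ± 0.16 and -4.14 ± 0.13). As a ratio of mean FPKM its fall in PB was 46.8-fold, below the 262-fold of *Kif11* and the 309-fold of *Mki67*. *Cdc20*, the activator of that complex, measured 14.3, 14.5 and 13.9 in BM, 0.570, 0.152 and 0.422 in PB and 0.294, 0.261 and 0.442 in lung. *Cdca3*, which triggers the loss of a mitotic inhibitor, fell by 2.49 and 2.56 log2 units.

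Of the genes of chromosome structure, *Mki67*, *Top2a* and *Ncapg* fell in both tissues. *Mki67*, which coats mitotic chromosomes and is the common marker of dividing cells, measured 15.6, 16.7 and 16.2 FPKM in BM and 0.0503, 0.0537 and 0.0532 in PB. The pooled read rate in BM was 309 times that in PB (95% interval 215 to 461, 9302 against 29 reads). *Top2a*, the topoisomerase that untangles sister chromatids, measured 15.7, 16.3 and 15.4 in BM, 0.0432, 0.104 and 0.0411 in PB and 0.201, 0.0891 and 0.127 in lung (log2 fold change of -3.99 ± 0.07 and -3.89 ± 0.07). *Hmgb2*, an abundant chromatin protein that bends DNA, was not called. It measured 179, 175 and 176 in BM, 135, 125 and 146 in PB and 88.9, 89.7 and 87.2 in lung, so the 3 groups did not overlap, with a log2 difference of -0.39 ± 0.06 in PB and -0.99 ± 0.02 in lung. After rescaling, the lung difference was -0.16.

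The replication fork genes were split. *Mcm3* and *Mcm5*, subunits of the MCM helicase, fell in both tissues, and *Mcm6* and *Mcm7* passed the threshold in lung (-1.19 ± 0.07 and -1.40 ± 0.09) and not in PB (-0.98 ± 0.08 and -0.48 ± 0.16). *Mcm2* lay below the filter, at 0.905 to 0.974 FPKM in BM and at most 0.121 in PB and lung. *Mcm4*, a subunit of the same ring, was kept at 4.28, 3.06 and 3.82 in BM, 6.64, 5.08 and 5.76 in PB and 4.0, 3.83 and 4.47 in lung, with a log2 difference of 0.53 ± 0.12 and 0.12 ± 0.10. *Pcna*, the sliding clamp, which also serves in DNA repair, measured 8.98, 9.16 and 9.72 in BM, 12.7, 14.9 and 14.1 in PB and 17.6, 19.6 and 17.7 in lung. The 3 groups did not overlap and stood in the order BM, PB, lung, and the log2 difference was 0.53 ± 0.07 in PB and 0.91 ± 0.06 in lung, short of the threshold. Relative to the median gene (-0.70) *Pcna* in lung passed it, at 1.68 with rescaled FPKM. Reads of *Pcna* can be shared with its pseudogenes.

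All tested genes of nucleotide supply fell. *Rrm2*, the small subunit of ribonucleotide reductase made in S phase, measured 7.60, 8.83 and 8.29 FPKM in BM, 0.0259, 0.523 and 0.148 in PB and 0.214, 0.267 and 0.195 in lung (log2 fold change of -2.92 ± 0.15 and -2.91 ± 0.08). *Rrm1*, the large subunit, measured 3.65, 3.27 and 3.05 in BM, 0.184, 0.353 and 0.417 in PB and 0.715, 0.583 and 0.470 in lung (-1.72 ± 0.10 and -1.44 ± 0.09). *Tk1*, thymidine kinase, had 215 reads in BM, none in PB and 1 in lung. *Tyms*, thymidylate synthase, was below the filter with 131 reads in BM, 1 in PB and 3 in lung.

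**Figure D3:**
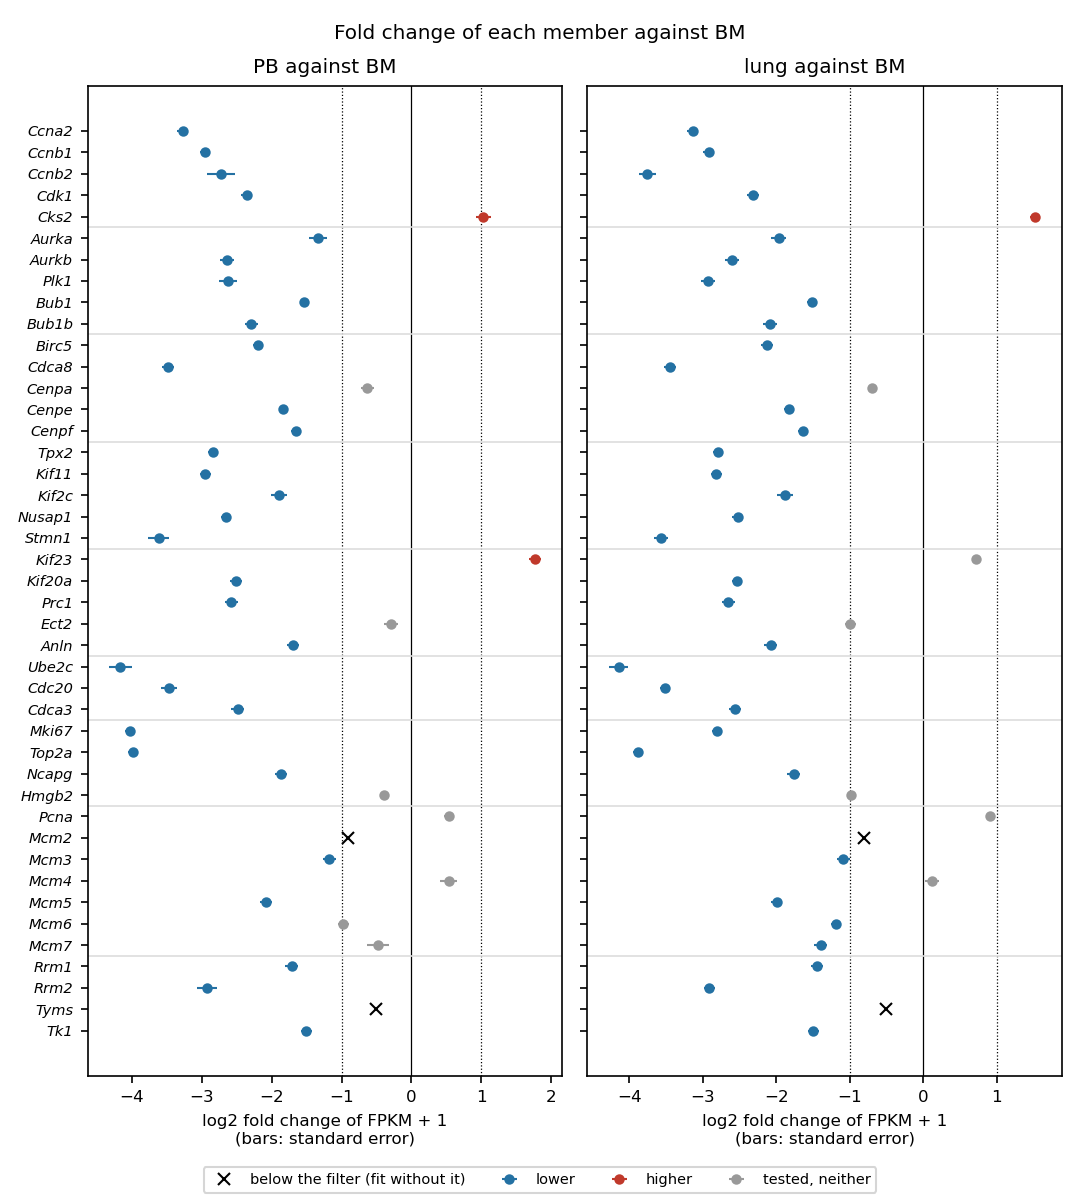
Log2 fold change of FPKM + 1 for each member in PB (left) and lung (right) against BM, with the standard error as a bar and dotted lines at 1 and -1. Blue points were called lower, red points higher and grey points neither, and crosses mark *Mcm2* and *Tyms*, fitted without the filter. *Cks2* and *Kif23* lie right of the line at 1 in PB, and *Cks2* alone in lung.

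Markers of the late granule stage moved with the fall from BM, and the other marker lists were mixed. The 8 genes of the late granule stage (myelocyte and metamyelocyte), among them *Ltf*, *Camp* and *Ngp*, summed to 48973 to 50609.5 FPKM per library in BM, 2114 to 2905 in PB and 2159.7 to 2283 in lung. The 5 stem and progenitor markers summed to 11.1 to 12.4 in BM, 1.03 to 1.18 in PB and 0.840 to 1.20 in lung, of which *Myb* gave 6.09 to 7.80 and *Kit* 4.48 to 5.13 in BM. *Cd34*, *Gata2* and *Flt3* had means of at most 0.0735 in all 3 tissues, and *Gata2* and *Flt3* were lowest in BM. The 6 genes of the promyelocyte stage summed to 7.88 to 8.87 in BM, 4.56 to 4.69 in PB and 2.00 to 2.75 in lung, and *Mpo* and *Elane* were under 1 FPKM in all 3. Its members did not move together, since *Ms4a3* had a mean of 3.78 in BM and no read in PB, while *Prtn3* was at 1.50 in BM and 2.20 in PB and *Prss57* at 2.30 and 2.25. Monocyte and macrophage markers (9 genes) summed to 674 to 813 in BM, 253 to 302 in PB and 187 to 193 in lung. Most of this sum was *Ly6c2*, with means of 660 in BM, 109 in PB and 63.0 in lung, and the complement genes *C1qa*, *C1qb* and *C1qc* were also highest in BM. *Csf1r* went the other way, with 42.3 in BM, 133 in PB and 97.4 in lung, as did *Adgre1* with 9.90, 29.7 and 26.8. The part of these cells in the values of the members was not tested.

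The wider cell cycle machinery was read from 5 further lists, to be set beside the 14.1% of all genes called lower and 7.85% called higher in PB, and 36.0% and 9.86% in lung. Genes of these lists, too, could pass the filter through BM alone. Of 60 other mitotic genes 45 fell and 1 rose among 52 tested in PB, and 46 fell and 2 rose among 53 tested in lung, and the median log2 difference of those tested was -1.66 in PB and -1.58 in lung. *Racgap1* and *Kif22*, a chromosome-bound kinesin, had the largest changes of this list on the log2(FPKM + 1) scale in both tissues. Of 43 other replication factors 26 were tested in each tissue, of which 9 fell in PB and 13 in lung. *Dnmt1*, the maintenance DNA methyltransferase, fell from 7.69 ± 0.12 FPKM in BM to 0.345 ± 0.129 in PB and 0.236 ± 0.056 in lung. Of 19 RB, E2F and DREAM regulators 5 of 13 tested fell in PB and 9 of 12 tested in lung. Here *Foxm1*, the activator of mitotic genes, went from 4.40 ± 0.13 in BM to 0.0632 ± 0.0268 in PB, while *Tfdp1*, the partner of E2F factors, went from 85.7 ± 1.4 to 21.3 ± 1.7 in PB and 10.4 ± 0.6 in lung.

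The regulators of G1 did not move as one. Of 9 G1 cyclins and kinases 6 were tested, of which 2 fell and 1 rose in PB and 3 fell and 1 rose in lung. *Cdk2*, the kinase of the G1 to S transition, fell from 36.5 ± 1.3 FPKM in BM to 6.65 ± 0.62 in PB and 3.45 ± 0.31 in lung. Of 7 CDK inhibitors 4 were tested, of which 2 rose and 1 fell in PB, and 1 rose and 2 fell in lung. *Cdkn1b* (p27) rose from 72.0 ± 1.6 in BM to 179 ± 12 in PB. *Cdkn1a* (p21), which blocks cyclin-dependent kinases and binds PCNA, measured 0.532 ± 0.195 in BM and 163 ± 3 in lung, a log2 fold change of 6.75 ± 0.08.

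**Figure D4:**
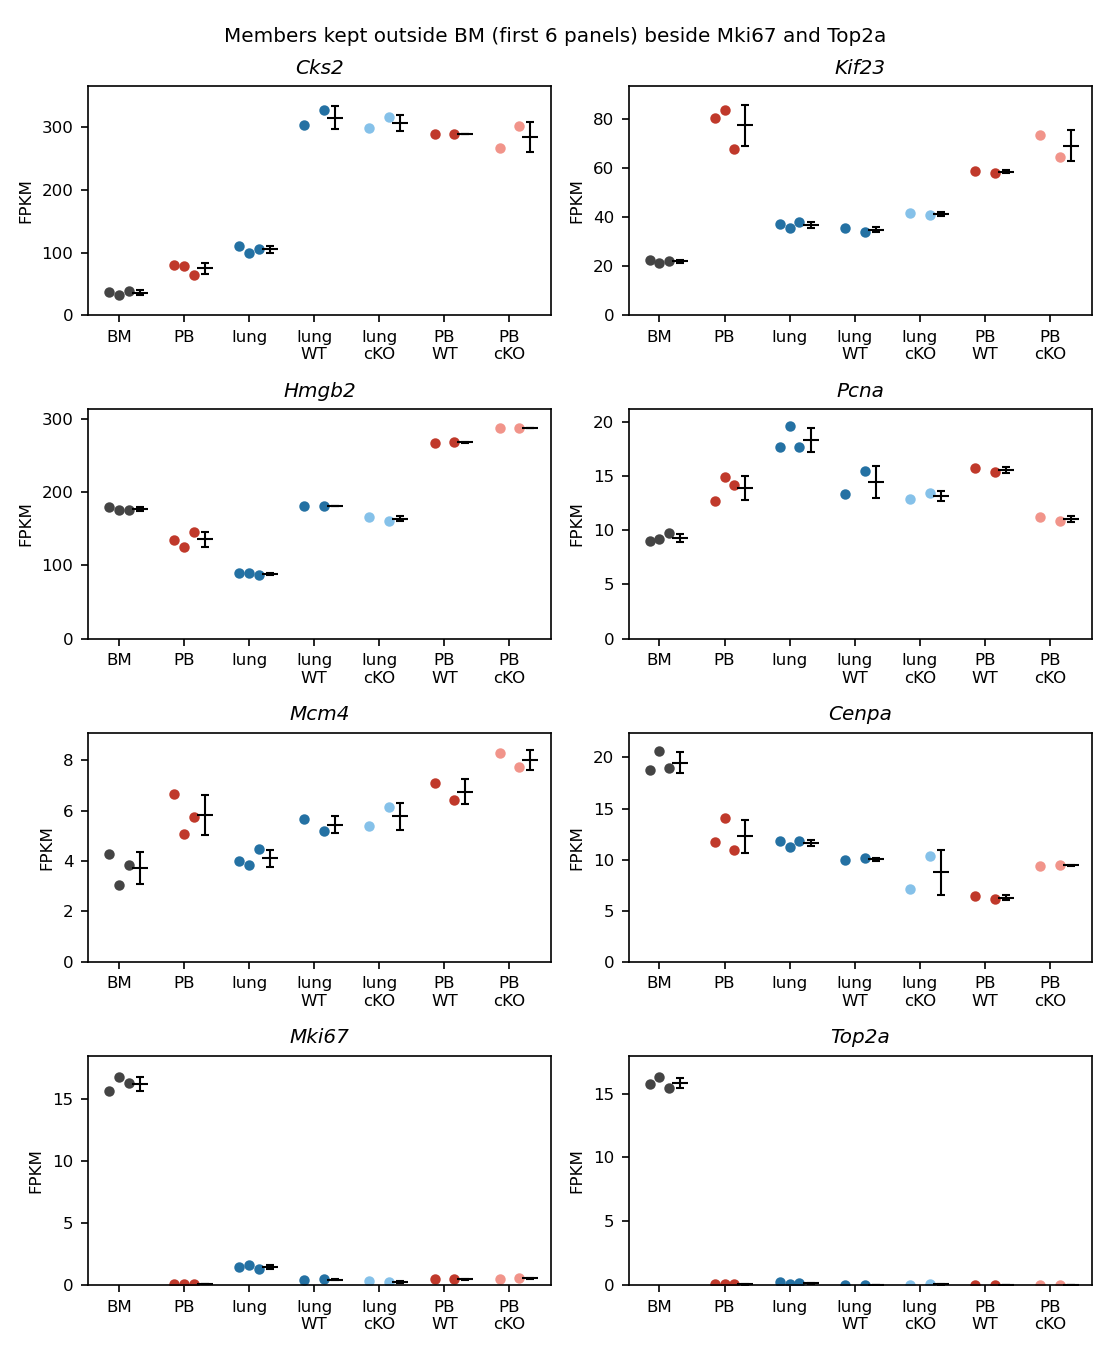
FPKM in every library (points) with the group mean and SD (bars, n = 3 in BM, PB and lung and n = 2 in the groups of the Piezo1 experiment) for 6 members kept outside BM and for *Mki67* and *Top2a*. In the tissue comparison *Cks2* and *Pcna* were lowest in BM and highest in lung, *Kif23* was highest in PB, and *Mki67* was at 1.31 to 1.63 in lung against at most 0.0537 in PB.

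Lung and PB were compared directly to see whether entry into the lung vessels goes with any change in these genes. Only 10 members reached the filter, 6 of them through both tissues. *Mki67* was higher in lung and *Kif23* lower, against 7.75% of all genes called higher and 19.5% lower. With FPKM rescaled, which turned those shares to 12.4% and 6.23%, *Mki67* and *Cks2* were higher and no member lower (limma, with 3 higher and 6 lower at an unadjusted p below 0.05 before rescaling). Without the third PB library 1 member was higher and 2 were lower. *Mki67* measured 1.43, 1.63 and 1.31 FPKM in lung, well apart from 0.0503, 0.0537 and 0.0532 in PB, and rose by 1.22 ± 0.08 log2 units (adjusted p = 2.25e-06). It passed the filter through lung alone. In reads, 748 in lung stood against 29 in PB.

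*Kif23* was lower in lung by 1.05 ± 0.08 log2 units on FPKM (adjusted p = 7.53e-06), but the median gene was itself lower by 0.54, and with FPKM rescaled the difference was 0.43 and missed the threshold. Without the second PB library it was 0.99. *Cks2* stood 0.50 ± 0.09 log2 units above PB and was called higher with FPKM rescaled (1.11). *Pcna* was higher by 0.37 ± 0.08, and *Hmgb2* (-0.60), *Mcm4* (-0.42), *Mcm7* (-0.92), *Ect2* (-0.70) and *Aurka* (-0.63) were lower without passing the threshold. *Hmgb2* and *Mcm4* turned to 0.0151 and 0.10 with FPKM rescaled, and *Mcm7*, *Ect2* and *Aurka* had passed the filter through PB alone. *Cenpa* differed by -0.06 ± 0.09, and by 0.51 with FPKM rescaled.

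The other genes of dividing cells were scarce in both tissues, but not equally so in reads. Counts of recovered reads of all genes called 11 members higher in lung (*Bub1b*, *Ccna2*, *Cks2*, *Kif11*, *Mcm3*, *Mki67*, *Ncapg*, *Nusap1*, *Rrm1*, *Top2a* and *Tpx2*) and *Ccnb2* and *Mcm7* lower (edgeR), against 11.1% and 8.44% of all genes. Apart from *Cks2* and *Mki67* these rose on 7 to 120 reads over the 3 lung libraries. *Nusap1* had 15 reads in lung and none in PB, *Ccna2* 18 and 1, *Kif11* 31 and 7, and *Top2a* 37 and 18. *Ccnb2* had 17 in lung and 130 in PB.

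Markers of other cells also differed between lung and PB. The macrophage complement gene *C1qa* measured 0.504 to 0.755 FPKM in lung and 0 to 0.0522 in PB, although the list of 9 monocyte and macrophage markers summed to less in lung. The 7 endothelial and epithelial markers summed to 3.35 to 4.41 in lung and 2.25 to 2.76 in PB, where 6 of them had no read. *Sftpc*, of alveolar type 2 cells, measured 0.580 to 0.980 in lung. The part of these cells in the *Mki67* reads was not tested.

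Among the wider lists, the CDK inhibitor *Cdkn1a* rose from 2.74 ± 0.44 FPKM in PB to 163 ± 3 in lung, by 5.46 ± 0.08 log2 units. *Cdk4*, a kinase of early G1, rose from 0.358 ± 0.218 to 7.09 ± 1.29, while its partner cyclin D2 (*Ccnd2*) fell from 11.97 ± 0.29 to 3.29 ± 0.23. *Ckap2l*, a protein of the mitotic spindle, rose from 0.406 ± 0.136 to 5.16 ± 0.40, the largest change among the other mitotic genes. In the WT libraries of the Piezo1 experiment these 4 genes were called in the same directions, *Cdkn1a* at 5.80 ± 0.05, *Cdk4* at 3.62 ± 0.10, *Ccnd2* at -1.30 ± 0.08 and *Ckap2l* at 2.51 ± 0.09. *Cdk4* and *Ckap2l*, below a mean of 1 FPKM in PB in both experiments, passed the filter through lung alone. Both could therefore be called only higher. Of the other mitotic genes 9 were tested in the tissue comparison, of which 3 rose and 1 fell.

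The WT libraries of the Piezo1 experiment offered a second comparison of lung with PB, in which *Mki67* measured 0.385 and 0.461 FPKM in lung and 0.495 and 0.448 in PB and lay below the filter. The rise of the tissue comparison was therefore not seen there, although the difference between the experiments was not tested. Of 11 members tested, none was higher, against 7.50% of all genes, and 2 were lower, against 26.5% (limma, with 2 higher and 7 lower at an unadjusted p below 0.05, and 9 higher and 3 lower by edgeR without the filter, against 11.7% and 14.1% of all genes). With FPKM rescaled, which turned the shares of all genes to 13.5% and 9.09%, *Aurka* and *Cenpa* were higher and *Cdca8* lower. Both lower members, *Ect2* and *Cdca8*, had passed the filter through PB alone and so could come out only lower in lung. *Ect2* measured 0.524 and 0.425 in lung and 2.83 and 2.28 in PB, a fall of 1.27 ± 0.11 log2 units (adjusted p = 1.92e-05), and its difference was -0.89 with FPKM rescaled, the median gene tested lying at -0.62. *Cdca8* had no read in lung and measured 1.45 and 1.56 in PB (69 reads), a fall of 1.32 ± 0.08 (adjusted p = 3.63e-06). *Kif23* measured 35.6 and 34.1 in lung and 59.0 and 58.1 in PB, with a log2 difference of -0.73 ± 0.04, and -0.02 with FPKM rescaled.

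To see what loss of PIEZO1 does to these genes, *Piezo1*-cKO was compared with WT in each tissue. In lung none of the 8 members tested was called, against 0.793% of all genes higher and 0.202% lower (limma, with 3 members higher and 1 lower at an unadjusted p below 0.05). *Aurka* came closest, with 2.35 and 2.12 FPKM in *Piezo1*-cKO and 0.882 and 0.906 in WT, a log2 difference of 0.77 ± 0.09 (adjusted p = 0.000807). Counts of recovered reads put it at 1.20 and called it higher (edgeR, adjusted p = 0.0190, against 3.70% of all genes higher and 2.56% lower). The same fit called *Bub1b* lower, on no read in *Piezo1*-cKO against 32 in WT (edgeR, adjusted p = 0.0256). *Rrm1* measured 1.97 and 2.19 in *Piezo1*-cKO and 1.08 and 0.965 in WT (0.61 ± 0.10). *Cks2*, *Pcna*, *Mcm4* and *Cenpa* overlapped between the genotypes. *Kif23*, at 41.8 and 40.8 in *Piezo1*-cKO and 35.6 and 34.1 in WT, lay apart by less than the threshold. So did *Hmgb2*, at 166 and 161 in *Piezo1*-cKO and 181 and 181 in WT.

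In PB, *Aurka* was higher and *Cdca8* lower in *Piezo1*-cKO among 12 members tested, against 1.68% and 1.97% of all genes. *Aurka* measured 1.87 and 1.99 FPKM in *Piezo1*-cKO and 0.0369 and 0.0324 in WT, or 95 reads against 2, and rose by 1.50 ± 0.10 log2 units (adjusted p = 0.000265). The pooled read rate in WT was 0.0178 of that in *Piezo1*-cKO (95% interval 0.00212 to 0.0659). In the tissue comparison the WT PB libraries held *Aurka* at 1.24 to 1.81, so that WT PB of the Piezo1 experiment was the lower of both sets. *Cdca8* measured 1.45 and 1.56 in WT and had no read in *Piezo1*-cKO, a fall of 1.32 ± 0.10 (adjusted p = 0.000293). Here, too, the WT PB libraries of the tissue comparison differed, with at most 0.10.

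Both *Aurka* and *Cdca8* had passed the filter through 1 genotype. Of members with FPKM of at least 1 in both genotypes, none was called in PB. *Pcna* measured 11.2 and 10.8 in *Piezo1*-cKO and 15.8 and 15.4 in WT (log2 difference of -0.46 ± 0.07), *Ect2* 1.35 and 1.45 against 2.83 and 2.28 (-0.56 ± 0.12), and *Cenpa* 9.41 and 9.45 against 6.44 and 6.11 (0.52 ± 0.08). In each the libraries of the genotypes did not overlap, with only 2 libraries a group. The share of all genes for which this holds was not determined. *Kif23*, at 73.7 and 64.6 against 59.0 and 58.1, and *Hmgb2*, at 288 and 288 against 268 and 269, were likewise apart by less than the threshold.

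Below the filter, several members had reads in both libraries of 1 group and none in either library of another. *Bub1b* measured 0.255 and 0.325 FPKM in lung WT and 0.515 and 0.868 in PB WT, and had no read in any of the 4 *Piezo1*-cKO libraries (73 reads in PB WT, 32 in lung WT). *Rrm1* measured 0.323 and 0.300 in PB WT and had no read in PB *Piezo1*-cKO, the opposite of its difference in lung. *Tk1* had 14 reads in PB *Piezo1*-cKO and none in PB WT. Counts of recovered reads called *Bub1b*, *Cdca8* and *Rrm1* lower and *Anln*, *Aurka*, *Tk1* and *Tyms* higher in PB *Piezo1*-cKO (edgeR), against 13.0% and 6.35% of all genes.

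The genotype effect was compared between tissues in 1 fit of the 8 libraries. Of 13 members tested, *Cdca8* alone was called, against 4.29% of all genes higher and 2.57% lower. Its genotype difference was 1.47 ± 0.11 log2 units more positive in lung than in PB (adjusted p = 6.33e-05), with 0.125 and 0.0862 FPKM in lung *Piezo1*-cKO and none in lung WT. *Cdca8* passed the filter through PB WT alone, the group that gives this difference its positive sign. *Rrm1* followed at 1.00 ± 0.12 (adjusted p = 0.000350) and did not exceed 1, *Ect2* at 0.88 ± 0.15 and *Aurka* at -0.73 ± 0.12. Counts of recovered reads, with no filter, called 4 members with a positive sign (*Cdca8*, *Ect2*, *Mcm2* and *Rrm1*) and 3 with a negative sign (*Aurka*, *Mcm6* and *Tk1*, edgeR, against 9.81% and 5.43% of all genes).

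Red cell transcripts moved with the PB genotype comparison. The 11 erythroid markers found summed to 1011 to 1136 FPKM in PB *Piezo1*-cKO, 25.1 to 26.9 in PB WT and at most 5.25 in lung of either genotype, *Hbb-bs* alone giving 338 to 408 in PB *Piezo1*-cKO. *Alas2*, of heme synthesis, measured 5.96 to 6.20 there and had no read in PB WT. Nearly all of the sum in PB was globin RNA (*Hba-a1*, *Hba-a2*, *Hbb-bs* and *Hbb-bt*). Of the 11 markers 5 had no read in PB *Piezo1*-cKO, among them *Klf1*, *Epor* and *Rhag*, which had means of 0.0464, 0.0765 and 0.0470 in PB WT. The part of red cell RNA in the *Aurka*, *Tk1* and *Tyms* reads was not tested.

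**Figure D5:**
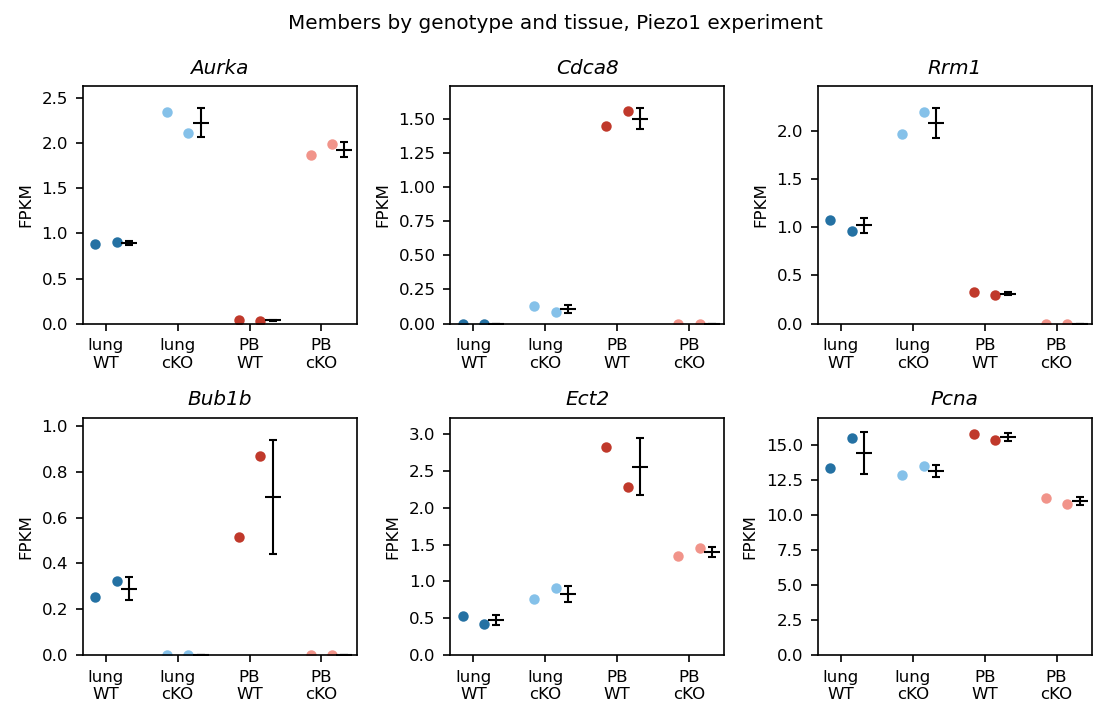
FPKM in each library (points) with mean and SD (bars, n = 2) for 6 members, by tissue (lung, PB) and genotype (WT, *Piezo1*-cKO). *Aurka* was at 1.87 or more in the 4 *Piezo1*-cKO libraries and at 0.906 or less in the 4 WT libraries, and *Cdca8* was above 1 in PB WT alone.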

How the data were processed

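Neutrophils were profiled by RNA-seq in 17 libraries. Per the labels and methods the authors trimmed reads with fastp, aligned them with HISAT2 to mm10, counted them with HTSeq and deposited FPKM per library. Versions were not given in the sources used here. For the Piezo1 experiment the authors also deposited a signal, reads scaled by the size factors of DESeq2 and averaged per group. It was used to check the read counts recovered from the FPKM steps. It also set the scale of some of them, since the recovered reads of 250 genes in lung and 488 in PB were multiplied to match it. Of the recovered values 100.0% were whole within 0.02. Columns with the authors' fold changes, p-values and q-values and a whole-lung table were not used.

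The main test was limma (3.58.1, R 4.3.3) on log2(FPKM + 1), on genes with FPKM of at least 1 in as many libraries as stated for each comparison (3 in the tissue comparison, 2 in the Piezo1 experiment), with p-values adjusted by Benjamini-Hochberg over all genes tested. A gene was called at an adjusted p below 0.05 and more than 1 log2 unit. This scale understates changes of low genes. The fits were repeated without the filter, with a pseudocount of 0.1, with FPKM rescaled to a common median, with a replicate block, with all libraries in 1 fit, by edgeR (4.0.16) and DESeq2 (1.42.0) on recovered reads, without the fold threshold and with each library left out. The scripts were tested on simulated data. Bounds for groups without reads allow 3 reads over the group, and intervals are exact at 95% and cover counting error only.

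The members and lists were chosen with earlier results of these data known. Values in every library are given for the 2 members of each role with the highest mean FPKM, for *Mki67*, *Top2a*, *Cdk1* and *Pcna*, and for the 3 largest called rises and falls. From the wider lists the 2 called genes with the largest change per list and comparison could be named. Other members were named after their values were seen. Whether same-numbered libraries deviated together was checked, and the numbers were not found to pair them. Reads of *Pcna*, *Ccnb1*, *Tyms* and *Stmn1* can be shared with pseudogenes or related copies. Promoters came from RefSeq (GRCm38.p6).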

Additional observations from a re-analysis of the deposited data

Results flagged for a closer look

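The genotype effect on *Cdca8* differed between lung and PB. *Piezo1*-cKO minus WT was 1.47 log2 units more positive in lung than in PB (limma interaction, adjusted p = 6.33e-05). The difference rested on 69 reads in the 2 WT libraries of PB and none in the 2 *Piezo1*-cKO libraries of PB. *Cdca8* passed the filter through these WT libraries alone, which give the difference its sign. The WT PB libraries of the tissue comparison held at most 0.10 FPKM. In lung *Piezo1*-cKO the gene measured at most 0.125 FPKM.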

How the results depend on the processing

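Of the counts of members, 155 kept within 1.5 times their value under an alternative and 59 did not. In PB against BM, 4 members were higher without the fold threshold and 1 to 2 with a library left out. In lung against BM, 3 were higher with FPKM rescaled, in edgeR (TMM, RLE or no filter), in DESeq2 and without the fold threshold. In lung against PB, the higher members numbered 2 with FPKM rescaled, 3 in edgeR (TMM or RLE), in DESeq2 and without the fold threshold, and 11 in edgeR with no filter. The lower ones numbered 4 with a pseudocount of 0.1, 2 without the filter in limma or edgeR, 0 with FPKM rescaled (limma), 6 without the fold threshold and 0 to 2 with a library left out, 0 without the second PB library. Of all 7577 genes tested there, 2212 were lower with a pseudocount of 0.1, and 5270 were lower and 1209 higher without the fold threshold. In lung *Piezo1*-cKO, 1 was higher with a pseudocount of 0.1, in edgeR (TMM, RLE or no filter) and in DESeq2, and 3 without the fold threshold. There 1 was lower in edgeR with no filter and 1 without the fold threshold. In PB *Piezo1*-cKO, edgeR with no filter gave 4 higher and 3 lower, and no fold threshold 4 and 5. In WT lung against PB, 2 were higher with FPKM rescaled, 1 in edgeR (TMM or RLE) and DESeq2, 9 in edgeR with no filter and 2 without the fold threshold, and 4 were lower with a pseudocount of 0.1, 1 with FPKM rescaled and 7 without the fold threshold. Of all 7143 genes tested there, 2662 were lower with a pseudocount of 0.1, and 5180 were lower and 1180 higher without the fold threshold. For genotype by tissue, 3 were higher with a pseudocount of 0.1, in edgeR (TMM or RLE) and in DESeq2, 4 in edgeR with no filter, 5 without the fold threshold and 1 to 2 with a library left out. There 1 was lower with a pseudocount of 0.1, in edgeR (TMM or RLE) and in DESeq2, and 3 in edgeR with no filter and without the fold threshold. Over all genes tested, no fold threshold called 2465 of 8237 higher in PB against BM and 1782 of 8236 in lung against BM. In *Piezo1*-cKO against WT it called 2249 of 6434 higher and 1016 lower in lung, and 1920 of 7256 higher and 1687 lower in PB. For genotype by tissue it called 2245 of 7560 higher and 1402 lower.

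Among the members followed one by one (those called, and those kept outside BM in the tissue comparison), the sign turned in 20 values, of members that the main test did not call. *Cenpa* in lung against BM became 0.0863 with FPKM rescaled, 0.0574 in edgeR TMM, 0.11 in edgeR RLE and DESeq2 and 0.0053 in edgeR with no filter. *Cenpa* in lung against PB became 0.51, 0.55, 0.57, 0.57 and 0.50 in the same order of rescaling, TMM, RLE, DESeq2 and no filter, and 0.0306 without the second PB library, the lowest with a library left out being -0.134. *Hmgb2* in lung against PB became 0.0151 with FPKM rescaled, 0.0130 in edgeR TMM and 0.0313 in edgeR RLE and DESeq2. *Mcm4* there became 0.10, 0.12, 0.14, 0.14 and 0.0640. Members not followed this way turned too with FPKM rescaled, *Mcm4* in lung *Piezo1*-cKO against WT from 0.07 to -0.02, and in WT lung against PB *Stmn1* to 0.10, *Hmgb2* to 0.16, *Pcna* to 0.58 and *Mcm4* to 0.36, and *Kif23* in the genotype by tissue difference to -0.11. The cause was not tested. With the replicate number as a block, the pairing correlations being -0.09 to 0.05 between tissues and -0.02 to 0.07 between the groups of the Piezo1 experiment, 2 members were higher and 32 lower in PB against BM, and no count of members moved in any comparison. Low reads outside BM limit what can be said of most members there.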

Other observations

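Genes of the wider lists were also called between the genotypes. Of all genes 0.793% were called higher and 0.202% lower in lung, and 1.68% and 1.97% in PB. Of the other mitotic genes 1 of 10 tested was called in lung and 2 of 8 in PB. In lung, *Kif18a*, a kinesin that limits chromosome movement at the metaphase plate, was at 2.51 ± 0.16 FPKM (SD, n = 2) in *Piezo1*-cKO and 0.327 ± 0.124 in WT, a rise of 1.40 log2 units (limma, adjusted p = 0.000128). In PB, *Cdkn1a* was at 1.21 ± 0.05 in *Piezo1*-cKO and 5.99 ± 0.36 in WT, a fall of 1.66 log2 units. *Cdkn2b* (p15) was at 2.06 ± 0.26 in PB *Piezo1*-cKO and listed at 0 in both WT libraries. *Rpa2*, a subunit of the protein that coats single-stranded DNA, was at 0.362 ± 0.231 in PB *Piezo1*-cKO and 4.67 ± 0.37 in WT. *Cdc25b*, the phosphatase that activates CDK1, was at 5.29 ± 0.06 and 14.7 ± 0.6. *Kif18a*, *Cdkn2b* and *Rpa2* passed the filter through 1 genotype alone in these comparisons and so could be called in 1 direction only. The genotype effect differed between the tissues for *Rpa2* by 2.98 ± 0.18 log2 units, for *Cdkn1a* by 1.52 ± 0.07, for *Kif18a* by 1.36 ± 0.13, for *Cdkn2b* by -1.61 ± 0.12 and for *Cdk4* by -1.31 ± 0.14, each as lung minus PB. Of all genes 4.29% were called higher and 2.57% lower in that fit. For *Cdkn2b* the value equals its rise of 1.61 in PB with the sign turned, so the lung libraries added nothing. For *Kif18a* it was close to the rise of 1.40 in lung alone. *Cdk4* had a mean of 0.0267 FPKM in PB WT.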
